A study of Mus musculus with 4 samples.

Results

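The hepatocyte secreted and metabolic genes were 39 genes chosen by symbol, and all 39 were found among the 18373 genes of the deposited table. They encode plasma carriers, apolipoproteins, protease inhibitors, clotting factors, urea cycle and amino acid enzymes, cytochromes P450 and the transcription factor HNF4A. They were measured in RNA of liver sinusoidal endothelial cells (LSECs), while the genes are known chiefly from hepatocytes. Some of them, such as *Ass1*, *Apoc1*, *Rbp4*, *Trf*, *Hp* and *Vtn*, are also expressed by other cells, and which cells the RNA came from was not measured. Of the 39 genes, 32 had enough counts to be tested, among 13628 genes tested in all.

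Hepatocytes, the parenchymal cells of the liver, synthesise most plasma proteins and secrete them through pores of the sinusoidal endothelium into the blood. The genes of these proteins are switched on together by a small circle of liver-enriched transcription factors, among them the FOXA factors, C/EBP factors and HNF4A. Their transcripts are among the most abundant of the whole liver, and they are therefore often found at low level in preparations of other liver cells.

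LSECs were isolated from livers of 8-week-old Balb/c mice, cultured for 24 h and transfected for 48 h with a control siRNA (NC, 2 libraries) or with siRNA against *Airn* (si*Airn*, 2 libraries). *Airn* is a long noncoding RNA of the imprinted *Igf2r* locus, and the comparison asked what its knockdown does to these cells. According to the study's methods the cells had been selected with CD146 magnetic beads after density centrifugation, and CD146 is found on endothelial cells and on some pericytes. The labels call the replicates biological but do not tie them to separate mice, so p-values measure the spread between these libraries. Which of the si*Airn* sequences each library received is not settled by the labels.

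The libraries held between 17308382 and 18371959 estimated counts. *Airn* itself had 7 and 3 counts in NC, against 11 and 9 counts in libraries labelled si*Airn*, so a lower level in the latter was not measured. All levels below are in CPM (counts per 1000000 of the scaled library total), unless FPKM are named. A count of 0 allows up to 3 counts, or 0.166 to 0.175 CPM here. Markers of LSECs were present as the labels say: the 18 genes of an LSEC list summed to 4955.3 and 5070.9 CPM in the NC libraries and to 3474 and 3230.8 CPM in the libraries labelled si*Airn*, with 16 of them tested. The other 2, *Cd209b* and *Wnt9b*, had at most 2 counts in any library, within the 3 that a count of 0 allows.

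Hepatocyte transcripts formed a small part of each library, and this part was unequal within both groups. The 39 genes summed to 1026.2 CPM in NC replicate 1, 1323.5 in NC replicate 2, 1376.1 in si*Airn* replicate 1 and 1803.3 in si*Airn* replicate 2. They held 0.102% (exact 95% binomial interval 0.1 to 0.103), 0.130% (0.129 to 0.132), 0.140% (0.138 to 0.142) and 0.182% (0.180 to 0.184) of the counts of these libraries, in the same order, and here and below such intervals cover counting error only. The libraries labelled si*Airn* both lay above both NC libraries, with a log2 ratio of the group means of 0.44, but replicate 1 of si*Airn* lay close to replicate 2 of NC. Without *Alb* the sums were 530, 686, 671 and 903 CPM, and the libraries in the middle changed places. In bulk RNA, more hepatocytes and more RNA per hepatocyte cannot be told apart.

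A few genes made up most of this signal. *Alb* (albumin, the main carrier protein of plasma), *Trf* (transferrin, the iron carrier), *Mup3* (a major urinary protein, which binds pheromones), *Hpx* (hemopexin, the heme scavenger) and *Gc* (the vitamin D binding protein) together held 74.4% to 76.8% of the counts of the 39 genes in each library. *Alb* alone held 48.4%, 48.2%, 51.2% and 49.9% of them in the order given above. Per transcript length, *Alb* reached 252.81, 323.54, 370.68 and 467.67 FPKM (fragments scaled to both transcript length and library total) and ranked 221st of all genes by its mean.

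**Figure D1:**
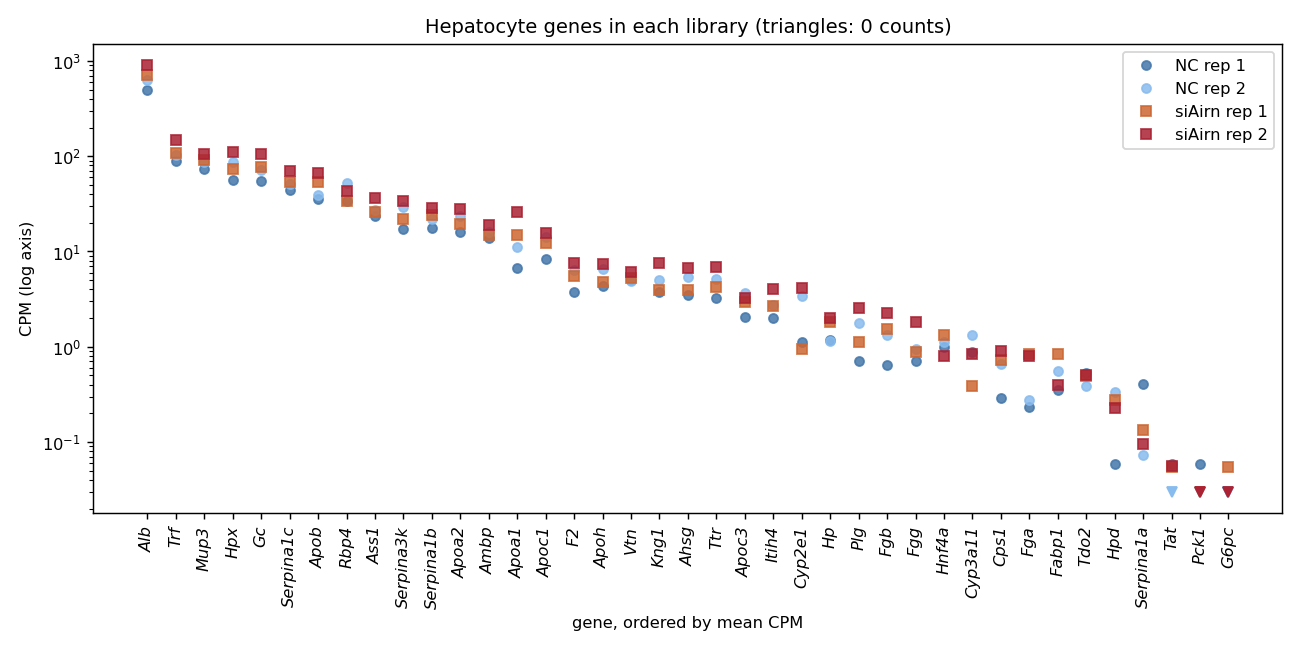
Level of each of the 39 hepatocyte genes in each library, in CPM on a log axis, with genes ordered by mean CPM. Circles are NC libraries and squares are libraries labelled si*Airn*, and triangles mark a count of 0. The dark squares of si*Airn* replicate 2 lie on top for most genes and the dark circles of NC replicate 1 at the bottom, and *Alb* stands well above the rest.

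The sequences just upstream of 4 of these genes are shown with the letters of a motif of a liver-enriched factor. *Alb* was the most abundant, *Apoa1* and *Apob* were the 2 genes called below, and *Cyp2e1* had the largest ratio between libraries of one group among the 32 genes tested. The windows are RefSeq's on GRCm38.p6, run from 250 bases before to 50 bases after the annotated start, and are printed 5′ to 3′ on the plus strand, the strand of all 4 genes. They lie at chr5:90460620-90460919 (*Alb*), chr9:46228380-46228679 (*Apoa1*), chr12:7977427-7977726 (*Apob*) and chr7:140763569-140763868 (*Cyp2e1*). Capitals mark exact matches on either strand to TGTTTNC, a FOXA motif.
Alb: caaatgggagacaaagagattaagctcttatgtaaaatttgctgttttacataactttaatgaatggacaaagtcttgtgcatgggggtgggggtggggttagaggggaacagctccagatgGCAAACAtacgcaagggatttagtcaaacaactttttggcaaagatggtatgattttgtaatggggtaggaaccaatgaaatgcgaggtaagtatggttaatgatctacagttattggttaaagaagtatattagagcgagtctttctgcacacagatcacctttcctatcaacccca
Apoa1: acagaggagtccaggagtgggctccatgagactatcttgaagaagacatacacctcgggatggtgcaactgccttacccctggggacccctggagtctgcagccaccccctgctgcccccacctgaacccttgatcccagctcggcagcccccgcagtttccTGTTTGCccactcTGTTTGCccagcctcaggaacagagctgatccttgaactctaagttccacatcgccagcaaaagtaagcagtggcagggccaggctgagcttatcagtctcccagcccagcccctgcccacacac
Apob: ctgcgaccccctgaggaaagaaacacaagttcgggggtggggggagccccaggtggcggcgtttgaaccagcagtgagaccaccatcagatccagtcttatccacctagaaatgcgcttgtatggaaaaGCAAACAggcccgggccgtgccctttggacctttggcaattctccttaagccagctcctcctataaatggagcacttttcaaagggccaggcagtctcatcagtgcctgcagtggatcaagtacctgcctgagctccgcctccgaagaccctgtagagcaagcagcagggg
Cyp2e1: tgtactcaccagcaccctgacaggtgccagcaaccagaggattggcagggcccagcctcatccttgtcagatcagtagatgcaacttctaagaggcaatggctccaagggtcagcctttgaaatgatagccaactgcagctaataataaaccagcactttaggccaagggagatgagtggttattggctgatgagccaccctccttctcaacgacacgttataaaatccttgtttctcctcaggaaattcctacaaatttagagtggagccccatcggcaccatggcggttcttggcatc
*Alb* held 1 match, from base -128 to -122 counted from the start. *Apoa1* held 2 matches, at -88 to -82 and -75 to -69, and *Apob* held 1 at -121 to -115, whereas these letters were not in the window of *Cyp2e1*. Windows were found for 30 of the 39 genes (33 windows), and 57.6% of these windows held the FOXA motif, against 20.5% of all 32851 RefSeq windows of this length. A motif of HNF4, TGNACTTTG, was in 3.03% of them (the window of *Cyp3a11*) and in 1.41% of all. These matches describe the windows, and neither binding nor chromatin was measured.

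Most hepatocyte genes had a higher level in libraries labelled si*Airn*, but few passed the test. Of the 32 genes tested, 30 had a log2 fold change above 0, where 50.1% of all genes tested had one. The median log2 fold change was 0.37, against 0.00 over all genes tested. Both values depended on single libraries: without NC replicate 1, 23 of the 32 were positive with a median of 0.19, and without si*Airn* replicate 2, 21 were positive with a median of 0.12, while without NC replicate 2 the median was 0.69 and without si*Airn* replicate 1 it was 0.61. With edgeR's quasi-likelihood test, adjusted over all genes tested, 2 hepatocyte genes rose (*Apoa1* and *Apob*) and 0 fell, where 8.27% of all genes tested were called higher and 8.56% lower. Before adjustment, 9 had a p under 0.05 with a higher level and 0 with a lower one, where 16.8% and 17.2% of all genes tested did. DESeq2 gave an adjusted p for 21 of the 39 genes and called 4 higher and 0 lower, where 7.25% of all 11385 genes with such a p were higher and 7.85% lower. With the study's threshold (fold change above 1.4, unadjusted p below 0.05), 5 genes were called higher (*Alb*, *Gc*, *Apoa1*, *Apob* and *Fga*), where 5.25% of all genes tested were. Of these, *Fga* passed the filter on low counts only through the libraries labelled si*Airn*, in which it was higher. Without si*Airn* replicate 1 edgeR called 10 hepatocyte genes higher, with 1162 of all genes tested called higher, and without si*Airn* replicate 2 it called 1, with 687 of all. Without NC replicate 1 it called 7 genes of all higher and without NC replicate 2 it called 0, so that the 0 hepatocyte genes called in each case say nothing about these genes. With NC replicate 1 left out, 23 of the 32 genes had a log2 fold change above 0, beside 6797 of all 13628 tested. With NC replicate 2 left out instead, 31 of the 32 did, beside 6814 of all.

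The groups did not overlap for 14 of the 32 genes, 13 of them higher in the libraries labelled si*Airn*, where 30.8% of all genes tested were separated in that direction. The gene separated in the other direction was *Cyp3a11*, where 31.9% of all genes tested lay lower. For the remaining 18 genes at least 1 library labelled si*Airn* fell within or below the NC libraries.

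**Figure D2:**
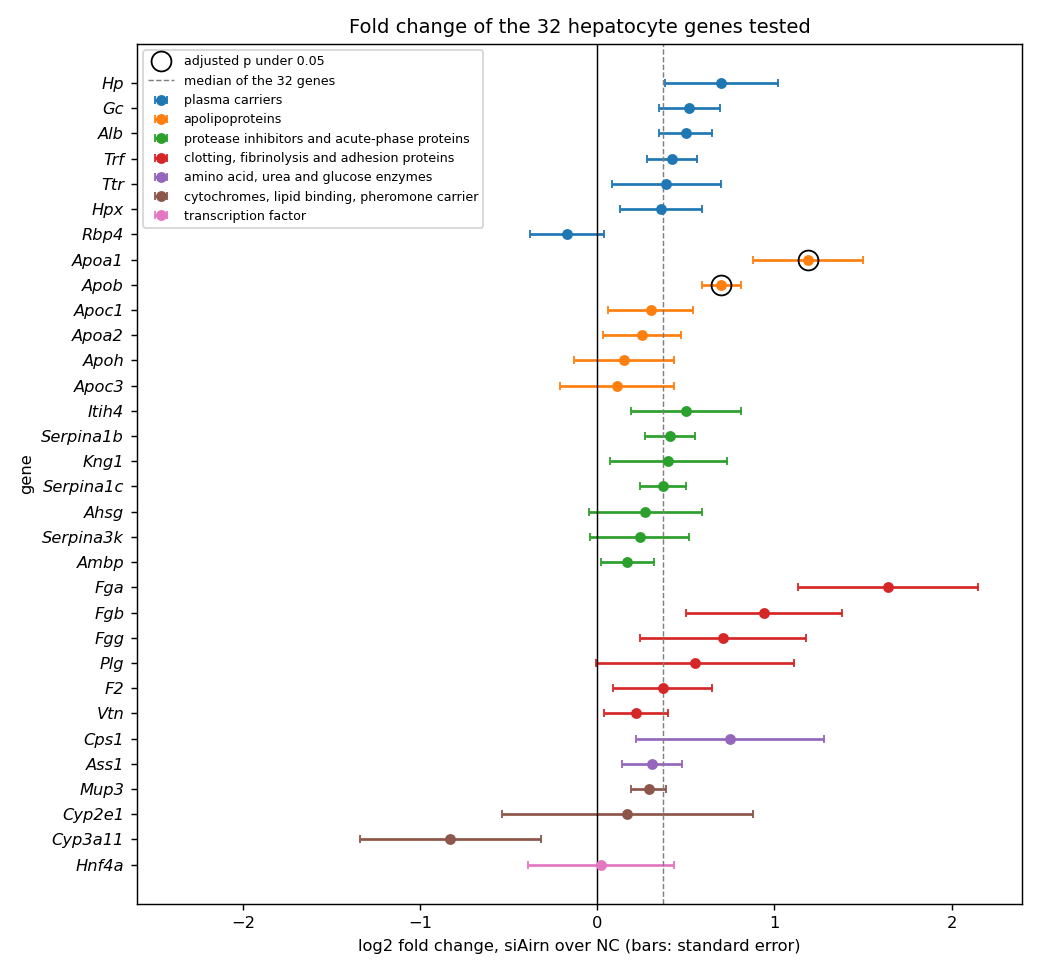
Log2 fold change of the libraries labelled si*Airn* over NC for the 32 hepatocyte genes tested, with the standard error of the edgeR fit as a bar and colours by role. The rings mark *Apoa1* (1.19) and *Apob* (0.70), the genes with an adjusted p under 0.05, and the dashed line is the median of 0.37. *Rbp4* and *Cyp3a11* lie left of 0.

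Of the 7 plasma carriers, 6 had a positive log2 fold change, with a median of 0.42, and none was called by edgeR's quasi-likelihood test. *Alb* (chr5:90460897-90476602, plus strand, in GENCODE M21) had 497, 638, 705 and 900 CPM in NC replicate 1, NC replicate 2, si*Airn* replicate 1 and si*Airn* replicate 2, from 8509 to 15924 counts. The group means were 567 ± 99.7 and 802 ± 138 CPM (SD, n = 2 each), and the groups did not overlap. The log2 fold change was 0.50 ± 0.15 (SE), with an adjusted p of 0.0598 by edgeR's quasi-likelihood test, so *Alb* just missed the threshold. Among other settings, it passed when edgeR scaled by library totals only (adjusted p = 0.0435), with edgeR's likelihood-ratio test (0.0106) and without si*Airn* replicate 1 (0.00477), and did not with DESeq2 (0.162) or without any other library (0.123 to 0.264).

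*Trf* had 89.5, 102, 109 and 148 CPM in the same order of libraries. *Gc* had 55.4, 71.7, 77.3 and 105 CPM. In both genes the libraries labelled si*Airn* lay above the NC libraries, with log2 fold changes of 0.42 ± 0.14 and 0.52 ± 0.17 and adjusted p of 0.0862 and 0.0756 with edgeR, and both were called by DESeq2 (0.0294 and 0.0173). Leaving out a library moved the adjusted p with edgeR between 0.0023 and 0.34 for *Trf* and between 0.00414 and 0.324 for *Gc*, and both passed only without si*Airn* replicate 1. Of the 50-base windows of *Trf*, 79.8% also occur in the overlapping gene model Gm20425, so the counting may have split its reads. *Hpx* had 56.9, 86.1, 73.9 and 110 CPM, and its groups overlapped (log2 fold change 0.36 ± 0.23, adjusted p = 0.309 with edgeR).

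*Rbp4*, which encodes the plasma carrier of retinol, ran against the other carriers. It had 34.0, 52.7, 33.6 and 43.5 CPM, so that si*Airn* replicate 1 was level with NC replicate 1 and NC replicate 2 was the highest of the 4 libraries. Its log2 fold change was -0.17 ± 0.21 (adjusted p = 0.601 with edgeR), and it was 0.04 once length and GC content were corrected for. The less abundant carriers were *Ttr* (transthyretin, for thyroxine and the retinol carrier) with 3.27 to 6.84 CPM and *Hp* (haptoglobin, for hemoglobin) with 1.16 to 1.98 CPM, neither of which was called.

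The apolipoproteins, the protein parts of lipoprotein particles, held both genes that rose. All 6 had a positive log2 fold change, with a median of 0.28. *Apoa1* (chr9:46228580-46230466), the main protein of high-density lipoprotein, had 114, 200, 267 and 456 counts, or 6.65, 11.1, 14.8 and 25.8 CPM. The group means were 8.85 ± 3.11 and 20.3 ± 7.78 CPM (SD, n = 2 each). Each library stood apart from the next, within groups as well as between them. The log2 fold change was 1.19 ± 0.31, with an adjusted p of 0.0432 by edgeR's quasi-likelihood test. This call was lost without NC replicate 1 (adjusted p = 0.213) and without NC replicate 2 (0.126), where almost no gene was called, without si*Airn* replicate 2 (0.0727) and with limma on log2 FPKM (0.0511 and 0.0518), while the log2 fold change stayed between 0.73 and 1.60 when libraries were left out.

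*Apob* (chr12:7977648-8016835), whose product is the backbone of very-low-density and low-density lipoprotein, had 615, 702, 979 and 1191 counts, or 35.9, 38.8, 54.2 and 67.3 CPM. The NC libraries lay close together at 37.3 ± 2.06 CPM and the libraries labelled si*Airn* at 60.7 ± 9.31 CPM (SD, n = 2 each), with a clear gap between the groups. The log2 fold change was 0.70 ± 0.11, with an adjusted p of 0.0128 by edgeR's quasi-likelihood test. The transcript is the longest of the 39 genes with 13934 bases. Once length and GC content were corrected for, its log2 fold change was 0.36 and the call was lost (adjusted p = 0.101 with edgeR). Without NC replicate 1 or NC replicate 2, where almost no gene of any kind was called, the log2 fold change was 0.65 and 0.76 (adjusted p = 0.102 and 0.115 with edgeR).

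The other apolipoproteins were not called by edgeR's quasi-likelihood test. *Apoa2*, the second protein of high-density lipoprotein, had 16.1, 23.4, 19.3 and 27.9 CPM, so replicate 2 lay above replicate 1 in both groups while the groups overlapped. *Apoc3*, which restrains lipoprotein lipase, lies beside *Apoa1* on chromosome 9 on the opposite strand. It had only 35, 66, 53 and 57 counts and a log2 fold change of 0.11 ± 0.32. In si*Airn* replicate 2 over NC replicate 2, *Apoa1* had a ratio of 2.33 (exact 95% binomial interval 1.97 to 2.77) and *Apoc3* one of 0.883 (0.609 to 1.28). Their intervals were apart in the 2 pairs of si*Airn* replicate 2 with an NC library and overlapped in the other 4 pairs of libraries. *Apoc1* and *Apoh* had 8.40 to 15.5 and 4.38 to 7.35 CPM.

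Among protease inhibitors and acute-phase proteins, 7 of 8 genes were tested. All 7 had a positive log2 fold change, with a median of 0.37, and none was called by edgeR's quasi-likelihood test. *Serpina1b* and *Serpina1c* encode forms of alpha-1 antitrypsin, the main inhibitor of neutrophil elastase. *Serpina1c* had 44.7, 51.1, 54.0 and 69.9 CPM and *Serpina1b* 17.6, 21.8, 23.9 and 28.4 CPM. In both, the 4 libraries kept the order of the summed level and the groups did not overlap. Their adjusted p were 0.0963 and 0.0865 with edgeR, and 0.0399 and 0.0453 once length and GC content were corrected for. *Serpina1a* had only 1.33 to 7.05 estimated counts and was not tested. Since 67.4% of the 50-base windows of *Serpina1a*, 35.8% of *Serpina1b* and 79.3% of *Serpina1c* are shared with other genes, how reads were divided among them is uncertain.

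*Serpina3k*, a relative of antichymotrypsin, had 17.3, 29.6, 21.9 and 33.8 CPM. Here replicate 2 was high and replicate 1 low in both groups, and the groups overlapped (log2 fold change 0.24 ± 0.28, adjusted p = 0.573 with edgeR). *Ambp* (alpha-1-microglobulin and bikunin), *Ahsg* (fetuin-A), *Kng1* (kininogen) and *Itih4* lay between 1.98 and 18.9 CPM, and all 4 had overlapping groups.

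The clotting, fibrinolysis and adhesion genes had the highest median of the groups with more than 2 genes tested, 0.63, but also few counts. None of the 6 was called by edgeR's quasi-likelihood test. The chains of fibrinogen, the precursor of the fibrin clot, are made in equal number by *Fga*, *Fgb* and *Fgg*, neighbours on chromosome 3. *Fga* had 4, 5, 15 and 14 counts, *Fgb* 11, 24, 28 and 40, and *Fgg* 12, 17, 16 and 32. The groups did not overlap for *Fga* and *Fgb* and overlapped for *Fgg*. At these counts, the exact 95% binomial intervals of the ratio of the NC libraries held 1 for all 3 genes. Between the groups, the interval for *Fga* lay above 1 in 3 of 4 pairs of libraries, with lower bounds of 1.04 to 1.13, and held 1 for si*Airn* replicate 2 over NC replicate 2 (0.975 to 10.2). *Fga* had the largest log2 fold change of the 32 genes, 1.64 ± 0.51 (adjusted p = 0.0686 with edgeR), and its being tested and its being higher are not independent, as said above. *F2* (prothrombin), *Plg* (plasminogen) and *Vtn* (vitronectin) had 0.70 to 7.52 CPM.

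Of the 7 amino acid, urea and glucose enzymes, only *Ass1* and *Cps1* could be tested, and neither was called by edgeR's quasi-likelihood test. The 6 other than *Ass1* had at most 16 counts in any library. *Ass1*, which joins citrulline and aspartate in the urea cycle and is not restricted to hepatocytes, had 23.3, 27.1, 26.0 and 36.7 CPM with overlapping groups (log2 fold change 0.31 ± 0.17, adjusted p = 0.235 with edgeR). Of its 50-base windows, 55.3% recur in the gene model Gm5424. *Cps1*, which starts the urea cycle in hepatocyte mitochondria, had 5, 12, 13 and 16 counts.

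Those of the 39 genes that act in gluconeogenesis or in tyrosine and tryptophan breakdown had few counts. *Pck1* and *G6pc* had 1 count in 1 library each and 0 in the others, and *Tat* had 1, 0, 1 and 1. *Hpd* had 1 to 6 counts and *Tdo2* 7 to 9. *Fabp1*, the fatty acid binding protein of hepatocytes, had 6, 10, 15 and 7 counts. In all, 6 of the 39 genes stayed under 10 counts in every library and 15 had at least 100 in every library. Genes with few counts were found among secreted proteins too, such as *Serpina1a* and the chains of fibrinogen. Some transcripts typical of hepatocytes were thus abundant in these libraries, as *Alb* was, while others, as *Pck1* and *G6pc*, were not detectable above the floor.

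*Mup3* had 74.3, 87.3, 91.9 and 105 CPM, and its libraries lay closer together than those of the other 9 of the 10 most abundant genes (log2 fold change 0.29 ± 0.10, adjusted p = 0.0971 with edgeR). Its groups did not overlap. *Cyp3a11*, a cytochrome P450 of drug and bile acid oxidation, had 15, 24, 7 and 15 counts, or 0.875, 1.33, 0.387 and 0.848 CPM. Of its 50-base windows, 14.8% also occur in other genes. Both libraries labelled si*Airn* lay below both NC libraries, by a narrow margin for replicate 2, with a log2 fold change of -0.83 ± 0.51 (adjusted p = 0.292 with edgeR). *Hnf4a*, the transcription factor, had 17, 20, 24 and 14 counts (0.992, 1.11, 1.33 and 0.791 CPM) and a log2 fold change of 0.02 ± 0.41 (adjusted p = 0.984 with edgeR).

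Whether these RNAs moved together was asked library by library, first by the order of the libraries. NC replicate 2 lay above NC replicate 1 for 30 of the 32 genes, where 50.2% of all genes tested did so, and si*Airn* replicate 2 above si*Airn* replicate 1 for 30 of the 32, where 49.1% did. For 28 genes both held. si*Airn* replicate 2 was the highest of the 4 libraries for 27 genes, or 84.4%, against 27.4% of all genes tested, and NC replicate 1 the lowest for 26, or 81.2%, against 23.4%. The libraries in the middle were less ordered: si*Airn* replicate 1 lay above both NC libraries for 14 of the 32 genes and between them for 15. The median deviation of the 32 genes from their own mean was -0.44, 0.04, -0.01 and 0.43 on the log2 scale in the order of libraries used above. Thus 2 libraries of different groups stood at the middle, and 1 of each group at an end.

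The size of the ratios was compared next. Each gene's ratio between 2 libraries, with an exact 95% binomial interval, was set against the ratio of the summed other hepatocyte genes. This was done in all 6 pairs of libraries. The pairs are formed from the same 4 libraries, so they are not independent of each other. For NC replicate 2 over NC replicate 1 the 39 genes together had a ratio of 1.29, and 22 of the 32 intervals held the ratio of the others, 6 lay above it and 4 below. For si*Airn* replicate 2 over si*Airn* replicate 1 the ratio was 1.31, with 23 intervals that held it, 6 above and 3 below. These are 68.8% and 71.9% of the 32 genes, and the interval held a ratio of 1 for 72.6% and 70.8% of all genes tested. In the 4 pairs between groups, 56.2% to 68.8% of the 32 intervals held the ratio of the others, where 46.9% to 53.4% of all genes had an interval that held 1. Over all 6 pairs, 8 genes held the common ratio every time (*Cps1*, *F2*, *Fga*, *Fgg*, *Hp*, *Itih4*, *Serpina1b* and *Ttr*), several of them with few counts and wide intervals, and 24 missed it at least once. That is 75.0% of the 32 genes, beside 77.4% of all genes tested whose interval missed 1 at least once. Whether an interval misses depends on its width, and the hepatocyte genes were not matched on counts with all genes tested. These shares therefore cannot say which strayed more often. The genes described next were chosen after their ratios were seen.

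**Figure D3:**
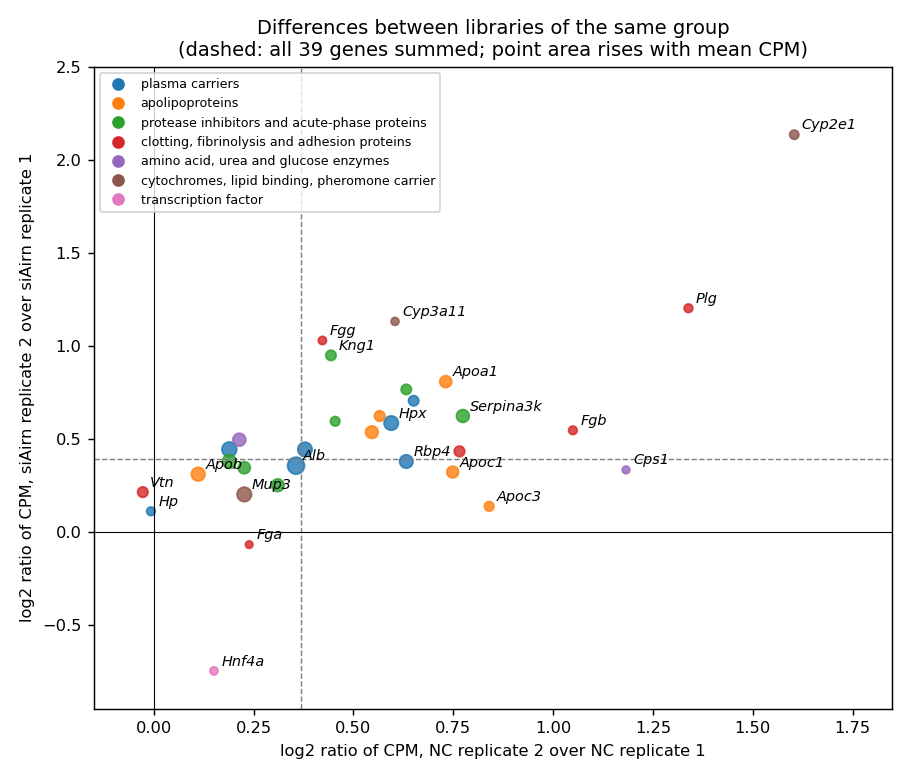
Ratio of replicate 2 to replicate 1 of NC (horizontal) and of si*Airn* (vertical) for the 32 hepatocyte genes tested, on the log2 scale. Colours give the role, point area rises with mean CPM and dashed lines are the summed 39 genes (ratios of 1.29 and 1.31). Most genes lie right of and above 0, *Cyp2e1* lies far out at ratios of 3.04 and 4.39, and *Apob* and *Mup3* lie below both dashed lines.

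*Cyp2e1*, an ethanol-oxidising cytochrome P450 of pericentral hepatocytes, had 19, 61, 17 and 73 counts, or 1.11, 3.37, 0.940 and 4.13 CPM. Replicate 2 was several times replicate 1 in both groups, with ratios of 3.04 (1.79 to 5.39) in NC and 4.39 (2.56 to 7.94) in si*Airn*, while the groups overlapped fully (log2 fold change 0.17 ± 0.71, adjusted p = 0.894 with edgeR). In the pair of si*Airn* replicate 1 over NC replicate 2, in which the 39 genes together had a ratio of 1.04, *Cyp2e1* had one of 0.279 (0.153 to 0.484). FPKM of *Alb* was 372, 158, 628 and 182 times that of *Cyp2e1*.

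*Apoa1* lay above the other hepatocyte genes in 6 of 6 pairs, which are not independent, as said above. Its ratios were 1.66 (1.31 to 2.11) and 1.74 (1.5 to 2.04) within NC and si*Airn*, and 3.88 (3.15 to 4.80) for si*Airn* replicate 2 over NC replicate 1. Its share of the counts of the 39 genes was 0.648% (exact 95% binomial interval 0.535 to 0.778), 0.835% (0.724 to 0.959), 1.07% (0.949 to 1.21) and 1.43% (1.30 to 1.57). The share thus followed the order of the summed level. The intervals of the NC libraries overlap, however, and so do those of NC replicate 2 and si*Airn* replicate 1.

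*Apob* showed the opposite balance. Between the NC libraries its ratio was 1.08 (0.969 to 1.21), below the 1.30 of the other genes, and between the libraries labelled si*Airn* it was 1.24 (1.14 to 1.35), which held their 1.31. In si*Airn* replicate 1 over NC replicate 2, where the other genes had 1.03, *Apob* had 1.4 (1.27 to 1.54). It therefore differed between groups more than its replicates did.

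*Mup3* lay below the other genes within both groups, with 1.17 (1.09 to 1.27) and 1.15 (1.07 to 1.23). *Hpx* and *Serpina3k* lay above them within both groups, with 1.51 (1.4 to 1.64) and 1.49 (1.39 to 1.60) for *Hpx*, and both lay below them in si*Airn* replicate 1 over NC replicate 2, with 0.858 (0.797 to 0.924) and 0.742 (0.650 to 0.846). *Rbp4* lay below the others in all 4 pairs between groups, down to 0.638 (0.575 to 0.707) in that same pair, and *Alb* above them in all 4, by little. Apart from *Cyp2e1*, these patterns were seen in well-counted genes, for which the intervals are narrow. Of the 50-base windows of *Mup3* and *Serpina3k*, however, 15.6% and 14.0% also occur in other genes. How their reads were divided is therefore uncertain.

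A wider list of 84 hepatocyte genes that are not among the 39 was read in the same way. Of its 83 genes in the table, 43 were tested, and 35 of them had a positive log2 fold change, with a median of 0.43, where 50.1% of all genes tested were positive. With edgeR, 3 rose and 0 fell (unadjusted p under 0.05 in 9 and 0, DESeq2 2 and 0), so the share that rose was near the 8.27% of all genes called higher. Without si*Airn* replicate 1 it called 6 of the list, with 1162 of all genes tested called higher, and without either NC library it called 0 of the list and almost no gene of any kind, as said above. *Abcc2*, the canalicular exporter of conjugated bilirubin, had 28.0, 30.6, 63.0 and 80.6 CPM, with a log2 fold change of 1.29 ± 0.13 (adjusted p = 0.00496 with edgeR). *Itih2*, a heavy chain of inter-alpha inhibitor, had 2.86, 3.37, 6.36 and 8.59 CPM (1.26 ± 0.22, adjusted p = 0.0156 with edgeR), and *Cyp4a14*, a fatty acid hydroxylase, had 0.584, 0.497, 1.77 and 1.98 CPM (1.78 ± 0.37, adjusted p = 0.0237 with edgeR). *Cyp4a14* had only 10 and 9 counts in NC against 32 and 35, so it stood well clear of the low-count filter only where it was high, it was not tested with a filter of 10 counts in every library, and DESeq2 gave it no adjusted p.

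In these 3 genes the libraries of each group lay closer to each other than to the other group, as in *Apob*. All of them were chosen because they were called, and the test favours genes whose replicates lie close. This closeness therefore adds little to the calls. The most abundant of the wider list per transcript length were *Masp1*, a protease of the lectin pathway of complement that is not restricted to hepatocytes, *Hamp*, the iron hormone hepcidin, and *Abcc2*. *Masp1* had 518, 565, 579 and 736 CPM and *Hamp* 6.01, 6.63, 7.47 and 9.61 CPM, and neither was called (adjusted p = 0.135 and 0.139 with edgeR). NC replicate 2 lay above NC replicate 1 for 31 of the 43 genes and si*Airn* replicate 2 above si*Airn* replicate 1 for 32, where 50.2% and 49.1% of all genes tested were. The list summed to 623, 702, 741 and 955 CPM, most of it *Masp1*, and to 105, 137, 162 and 219 CPM without *Masp1*, with the same order of libraries.

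Markers of another cell type moved with the hepatocyte genes. The 14 genes of a stellate cell and fibroblast list summed to 1770.7, 2148.1, 2074.5 and 2695.6 CPM, lowest in NC replicate 1 and highest in si*Airn* replicate 2, as the 39 genes were. All 14 had a positive log2 fold change (median 0.42), 4 rose (*Acta2*, *Col3a1*, *Lum* and *Reln*), and replicate 2 lay above replicate 1 for 13 genes in NC and 14 in si*Airn*. Beside these and the following calls stand the 8.27% of all genes tested that were called higher and the 8.56% called lower. The LSEC list (16 tested, median -0.60, 13 called lower) and a pan-endothelial list (13 tested, median -0.44, 9 called lower) went down. A Kupffer cell and macrophage list summed to 253, 320, 196 and 163 CPM (13 tested, median -0.70, 7 called lower). Cholangiocyte markers summed to 31.6 to 35.4 CPM (6 tested, median -0.11, none called), and lymphocyte markers to 3.98 to 6.50 CPM (3 of 11 tested, median 0.98, none called). Replicate 2 lay above replicate 1 for 8 of 16 LSEC genes in NC and 3 in si*Airn*, for 1 of 13 pan-endothelial genes in each group, and for 12 of 13 Kupffer cell genes in NC and 3 in si*Airn*. Of the 6 cholangiocyte genes it did so for 2 in each group, *Krt19* and *Spp1*, the genes of this list with the most counts. *Krt19* had 255, 290, 334 and 358 counts. *Spp1* had 188, 231, 187 and 183 counts, about level between the libraries labelled si*Airn* once scaled. *Krt7*, a keratin of bile duct cells, had 63, 11, 63 and 3 counts, high in replicate 1 of both groups. *Epcam*, *Sox9* and *Muc1*, with few counts, were higher there too. The cholangiocyte genes thus did not move together between replicates. No gene of these lists was at 0 in every library, and the part of such differences in cell make-up in the changes of hepatocyte genes was not tested.

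**Figure D4:**
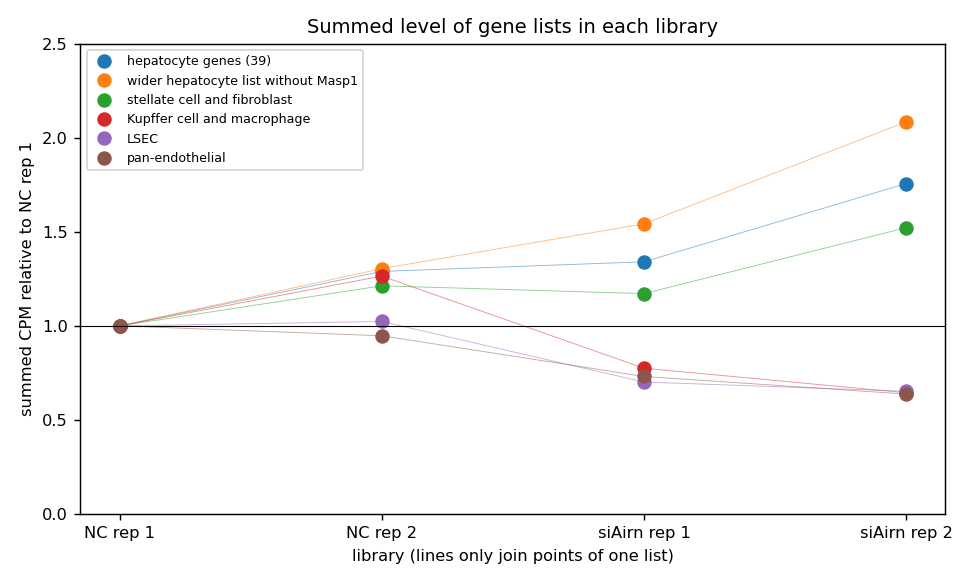
Summed CPM of 6 gene lists in each library, relative to NC replicate 1, with thin lines that only join the points of one list. The 39 hepatocyte genes, the wider hepatocyte list (drawn without *Masp1*) and the stellate cell list are all highest in si*Airn* replicate 2, while the LSEC, pan-endothelial and Kupffer cell lists are all lowest there.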

How the data were processed

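RNA-seq of 4 libraries was analysed, grouped by the labels as 2 NC and 2 si*Airn*. Reads were single-end, 50 bases, from a BGISEQ-500. The authors deposited estimated counts per gene, of which 76.5% to 76.8% are whole numbers, and a second value per gene whose unit the header does not name and which was read as FPKM computed by the authors, since it scales with count, length and library total. Authors' group means were not used. The submitters' processing notes name RSEM, Bowtie2 and BWA and, although the cells are from mouse, the human build hg19, so no coordinates were taken from the deposited table. Use of strand in counting is not given in the sources used here.

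Estimated counts were rounded and tested in edgeR 4.0.16 (R 4.3.3) with TMM scaling, filterByExpr and the quasi-likelihood test without covariates, with Benjamini-Hochberg adjustment over 13628 genes and a call at an adjusted p under 0.05. Standard errors are those implied by the F statistic. TMM factors were 0.985 to 1.02. CPM are counts per 1000000 of the scaled library. Ratios of 2 libraries carry exact (Clopper-Pearson) 95% intervals. Gene positions, shared 50-base windows, GC content and length came from GENCODE M21 (GRCm38, 12948 of the genes tested), and promoters from RefSeq (GRCm38.p6). The scripts were tested on simulated counts.

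The members and lists (hepatocyte roles, wider hepatocyte genes, transcription factors, zonation, glucocorticoid or fasting induced genes, LSEC, pan-endothelial, Kupffer cell, stellate cell, cholangiocyte, lymphocyte) were chosen with earlier results of these data known, so no list was tested. Values in every library are given for genes called, the 10 most abundant, those with an unadjusted p under 0.05, *Hnf4a* and a separated gene of opposite sign, and, in the wider list, for genes called and the 3 most abundant. Alternatives were DESeq2 1.42.0, upper-quartile scaling, library totals, filters of 1 count in any or 10 in every library, limma 3.58.1 on log2(FPKM + 1) and log2(FPKM + 0.1) where mean FPKM reached 1, the likelihood-ratio test, the study's threshold, a replicate block, a correction for length and GC content (splines with 5 degrees of freedom), and leaving out each library. Summed FPKM, the wider list's sum without *Masp1*, and the genes with GC content tested without the correction, were added after seeing the data.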

Additional observations from a re-analysis of the deposited data

How the results depend on the processing

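The number of hepatocyte genes called higher, 2 of 32 with edgeR's quasi-likelihood test, was 4 with DESeq2, 3 with library totals, 3 with the correction for length and GC content, 8 with edgeR's likelihood-ratio test, 5 with the study's threshold, 1 of the 25 that entered limma at either pseudocount, 13 with a replicate block (below) and 2 under the other alternatives that keep all libraries. Over all genes tested the number called higher was 1127 with edgeR's quasi-likelihood test, 825 with DESeq2, 1413 with library totals, 923 and 932 of 11667 with limma and 1565 with edgeR's likelihood-ratio test. No hepatocyte gene among the 39 was called lower under any alternative. When a library was left out (the lone library of a group is then assumed to vary like the others), the number ranged from 0 to 10, over all genes tested from 0 to 1162 higher and from 0 to 1170 lower (1167), and in the wider hepatocyte list from 0 to 6 higher and from 0 to 1 lower. Without NC replicate 2 edgeR called no gene of any kind, although 1512 were higher and 1563 lower at an unadjusted p under 0.05. Over all genes, the correction for length and GC content gave 365 higher and 666 lower and the study's threshold 715 and 643.

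The median log2 fold change of the 32 genes ranged from 0.12 to 0.69 when a library was left out, and the log2 ratio of the summed level from 0.23 to 0.63. Without genes that other liver cells also express, the median was 0.38 and the log2 ratio of the summed level 0.46. Without genes with near-identical paralogs these values were 0.38 and 0.46 too. The log2 fold change reversed when a library was left out in 13 genes: *Ahsg* (-0.17 to 0.62), *Ambp* (-0.01 to 0.33), *Apoa2* (-0.04 to 0.55), *Apoc1* (-0.02 to 0.73), *Apoc3* (-0.25 to 0.59), *Apoh* (-0.19 to 0.46), *Cyp2e1* (-1.25 to 1.18), *Hnf4a* (-0.40 to 0.34), *Kng1* (-0.14 to 0.80), *Plg* (-0.17 to 1.37), *Rbp4* (-0.45 to 0.18), *Serpina3k* (-0.10 to 0.68) and *Ttr* (-0.0034 to 0.75). *Rbp4* also reversed with the correction for length and GC content (0.04). Of 461 single-gene values under alternatives, 402 kept direction and, where they had an adjusted p, their side of the threshold. Some DESeq2 values among them had none, as for *Apoc3* and *Hp*. Of the rest, 30 newly passed the threshold, 8 no longer did and 21 reversed. The causes were not tested.

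The labels number the replicates but do not say that a number marks a shared mouse or day. Deviations from the group means of libraries with the same number correlated at 0.233 across genes. With a replicate block, 13 hepatocyte genes were called higher (among them *Alb*, adjusted p = 3.18e-05 with edgeR), 9 of the wider list higher and 1 lower, and 2405 genes of all higher and 2436 lower, while *Hnf4a* had a log2 fold change of -0.0044.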

Other observations

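Hepatocyte transcription factors other than *Hnf4a* summed to 84.8, 89.5, 84.9 and 79.3 CPM in NC replicate 1, NC replicate 2, si*Airn* replicate 1 and si*Airn* replicate 2. Of 13 such genes 8 were tested, 5 had a positive log2 fold change, none was called by edgeR and the median was 0.02, beside 0.37 for the 32 hepatocyte genes. Several of these factors are also expressed by other liver cells.

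Genes of the opposite ends of the liver lobule were read separately. Periportal hepatocyte genes, of which *Alb* is one, had a median log2 fold change of 0.10 over 8 genes tested, and none was called by edgeR. Pericentral genes had a median of 0.15 over 9 tested, and 1 was called: *Glul*, glutamine synthetase, which endothelial and stromal cells also express, fell by 0.36 on the log2 scale, with 200, 236, 161 and 178 CPM (adjusted p = 0.0439 with edgeR). Hepatocyte genes induced by glucocorticoids or fasting summed to 0.497 to 0.817 CPM, and 0 of 6 could be tested.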
